A study of Mus musculus with 18 samples.

Results

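The comparison described here is that of WT donor T cells taken from allogeneic recipients with WT donor T cells taken from syngeneic recipients, over all genes of the count table. Its members were chosen by the sample labels: 3 allogeneic WT libraries against 3 syngeneic WT libraries, 6 of the 18 samples that the labels describe. WT cells carry intact Wapl, the gene that is deleted in the KO samples of the series. Donor T cells came from C57BL/6 mice (CD45.2). Syngeneic recipients were B6.SJL-Ptprca Pepcb/BoyJ mice, which share the H-2b major histocompatibility type of the donors, were given 9.5 Gy and received 8500000 T cells. Allogeneic recipients were of H-2d type, are named CByJ.SJL(B6)-Ptprca/J in the protocol and BALB/c in another field, were given 8 Gy as a split dose and received 1000000 T cells. Every recipient also received 5000000 T-cell-depleted C57BL/6 marrow cells, and donors and recipients were described as female and 8 to 12 weeks old. On day 7 T cells were enriched from the spleens of 2 to 4 pooled mice per library and sorted as live, CD3+ and CD45.2+. The marrow donors carry CD45.2 as well, so the gate does not separate the progeny of the T cell graft from that of the marrow graft. Radiation dose, T cell dose and recipient strain differ together between the groups, and their parts cannot be told apart from that of the allogeneic transplant itself.

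T cells that meet foreign histocompatibility molecules after such a transplant divide, leave the naive state and become effector cells, the process that drives graft-versus-host disease. Effector T cells make granzymes and perforin, which kill target cells, and cytokines, which act on other cells. They also gain inhibitory receptors such as PD-1 and lose CCR7, which guides naive cells into lymph nodes. T cells placed in an irradiated syngeneic host also divide, driven by free space, cytokines and self antigens, and so the syngeneic group is not a resting control.

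The 6 WT libraries held 52517143 to 89007100 counts. On the first principal component, with 74.9% of the variance of log2 expression, the 3 syngeneic libraries lay on one side and the 3 allogeneic libraries on the other. Genes of ribosomal RNA took 20.2 to 23.1% of the counts in syngeneic WT and 8.26 to 17.8% in allogeneic WT. Summed over the alpha beta T cell list (12 genes), the T cell markers stood at 3671 to 4984 counts per 1000000 (CPM) in syngeneic WT and 5269 to 5874 CPM in allogeneic WT. Cd3e, of the T cell receptor complex, was at 359 to 485 CPM in syngeneic WT and 578 to 619.7 CPM in allogeneic WT. Its adjusted p by edgeR was 0.0522 to 0.124 without syngeneic WT replicate 2 or 3 or any allogeneic WT library. In this list 3 genes were higher at an adjusted p under 0.05 by edgeR. Of these, 0 remained so in every fit that left out a WT library. Markers of red cell precursors (18 genes) stood apart in the syngeneic WT libraries, at 2778 to 6915 CPM summed, against 71.9 to 249.8 CPM in allogeneic WT. Wapl, listed as Wapal, stood at 170.1, 211 and 183 CPM in syngeneic WT and at 169, 156 and 158 CPM in allogeneic WT, and did not pass the test (log2 fold change −0.22 ± 0.11 SE, adjusted p = 0.153).

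In allogeneic WT cells the genes of granzymes, of perforin, of several cytokines and of inhibitory receptors were many times higher, while Ccr7, Tcf7 and other genes of naive T cells were many times lower. Part of the interferon stimulated genes, 12 of 26, were lower in allogeneic cells. Few S phase genes passed the test, while 8 of 30 genes of G2 and mitosis were higher in allogeneic cells. Genes of red cell precursors were among the most reduced. Of 18447 tested genes, 5955 (32.3%) were called, meaning that their Benjamini-Hochberg adjusted p over all tested genes was under 0.05 by the edgeR quasi-likelihood test. Of these, 3023 (16.4% of the tested genes) were higher in allogeneic cells and 2932 (15.9%) lower, and 7962 genes had an unadjusted p under 0.05. Among the called genes 1258 rose and 1927 fell by more than 1 on the log2 scale. The median log2 fold change over all tested genes was −0.03, with quartiles of −0.58 and 0.37. The 3 libraries of each group did not overlap for 55.7% of all tested genes. Of the called genes, 3591 kept their call whichever of the 6 libraries was left out. The test estimated the spread of each gene over 12 libraries, the 6 KO libraries included. In a fit of the 6 WT libraries alone, 7766 genes were called. All adjusted p values given for single genes come from this edgeR test unless another is named, and errors of log2 fold changes are standard errors. A level given as rising or falling from one value to another is a mean of 3 libraries per group. The SD among the 3 libraries was 15.4% (syngeneic) and 12.7% (allogeneic) of the mean at the median over the 163 genes named. At the upper quartile of these genes it was 24.6% and 19.9%. Each count of called genes in a list below stands beside the 16.4% higher and 15.9% lower of all tested genes. A count near these shares says little about the list. Where a count of called genes in a list was 0, the DESeq2 count in that direction was 0 as well. List members under the filter on low counts are outside the counts given, 3 of 19 for the cytotoxic list, 4 of 24 for cytokines, 1 of 18 for p53 targets, 3 of 21 for macrophage genes, 1 of the 9 gamma delta genes in the table and 2 of 9 for platelet genes.

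**Figure D1:**
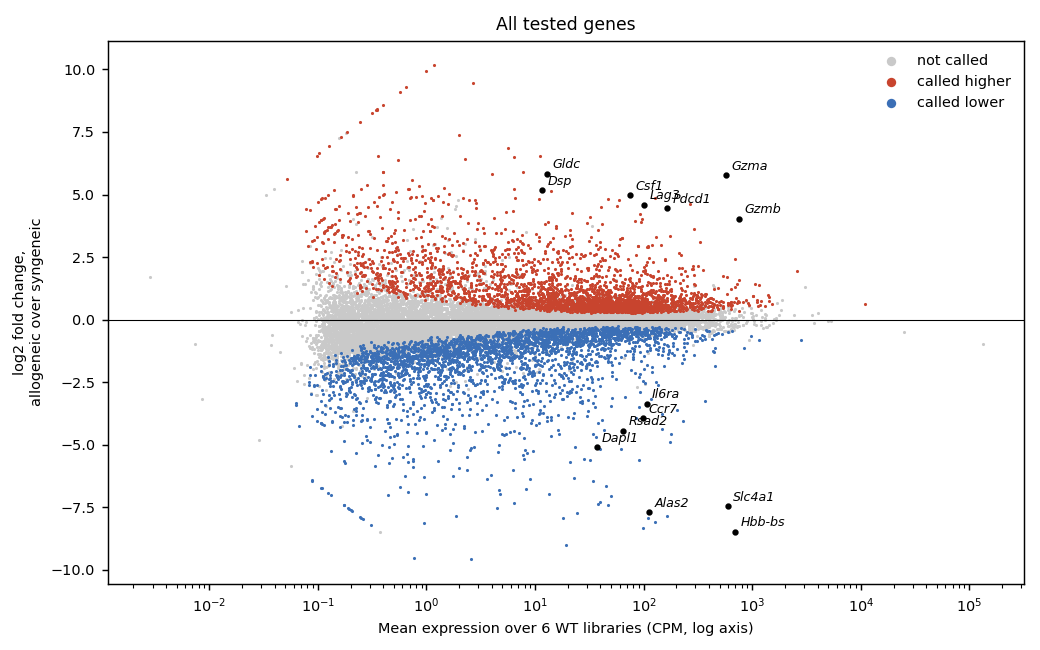
Log2 fold change of allogeneic over syngeneic WT for every tested gene (vertical axis) against its mean expression over the 6 WT libraries in CPM (horizontal log axis); each point is a gene, coloured by its call at an adjusted p of 0.05, and black points mark named genes. Granzyme, inhibitory receptor and Csf1 genes lie at the top, and globin and other red cell genes at the bottom.

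Most cytotoxic genes rose. Of 16 tested members of the cytotoxic list, 13 rose and 1 fell, with a median log2 fold change of 2.26, against 16.4% higher, 15.9% lower and a median of −0.03 over all genes. Gzma, which encodes granzyme A, stood at 15.5, 22.7 and 24.0 CPM in the syngeneic libraries and at 1342, 1166 and 899 CPM in the allogeneic ones (log2 fold change 5.78 ± 0.39, adjusted p = 6.58e-07). Gzmb, the granzyme that triggers apoptosis in target cells, stood at 84.8, 67.1 and 111 CPM against 1508, 1333 and 1442 CPM (4.03 ± 0.34, adjusted p = 3.02e-06). Prf1 encodes perforin, the pore through which granzymes enter, and stood at 55.2, 41.0 and 49.5 CPM against 246, 256 and 291 CPM (2.44 ± 0.19, adjusted p = 1.31e-06). The lowest allogeneic library lay far above the highest syngeneic library for each of these genes. Serpinb9, an intracellular inhibitor of granzyme B, rose from a mean of 32.3 to 256 CPM, and its relative Serpinb6b from 31.1 to 320.0 CPM. Fasl, the ligand of the death receptor Fas, rose from 11.9 to 50.2 CPM. The granzymes did not all move in one direction. Gzmk rose from 5.45 to 76.6 CPM, whereas Gzmm, which encodes granzyme M, fell from 38.0 to 10.1 CPM (−1.91 ± 0.21, adjusted p = 1.99e-05).

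In the cytokine list 9 of 20 tested members rose and 2 fell (median 1.39). Ifng, the interferon gamma gene, stood at 9.29, 9.36 and 10.1 CPM in syngeneic cells and at 41.2, 35.4 and 40.1 CPM in allogeneic cells (2.02 ± 0.41, adjusted p = 0.00333). Csf1, the growth factor of macrophages, stood at 3.45, 4.76 and 5.66 CPM against 158, 165 and 115 CPM (4.98 ± 0.23, adjusted p = 2.42e-08), one of the 12 largest rises among called genes with at least 5 CPM in the higher group and no overlap of the groups. The groups did not overlap for Ifng either, as was so for 55.7% of all tested genes. Csf2, which encodes GM-CSF, rose from a mean of 0.379 to 5.56 CPM. The type 2 cytokine genes Il4 and Il13 rose from 0.0957 to 3.12 CPM and from 0.137 to 7.85 CPM, so both remained low in level. Il10, an inhibitory cytokine, rose from 0.435 to 5.44 CPM, and the chemokine Ccl3 from 5.54 to 34.7 CPM. Ltb and Lta, the lymphotoxin genes, fell from 206 to 104 CPM and from 9.16 to 2.43 CPM. Tnf, a neighbour of both in the genome, stood at 26.5, 19.6 and 22.3 CPM against 12.0, 11.5 and 15.3 CPM, lower in every allogeneic library, and did not pass the test over the 12 libraries of the fit (−0.82 ± 0.32, adjusted p = 0.0719). In a fit of the 6 WT libraries alone its adjusted p was 0.00167, and by DESeq2 it was 0.0330. Il2 was low in both groups, at 0.355 and 0.268 CPM on average, and was not called (adjusted p = 0.407).

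**Figure D2:**
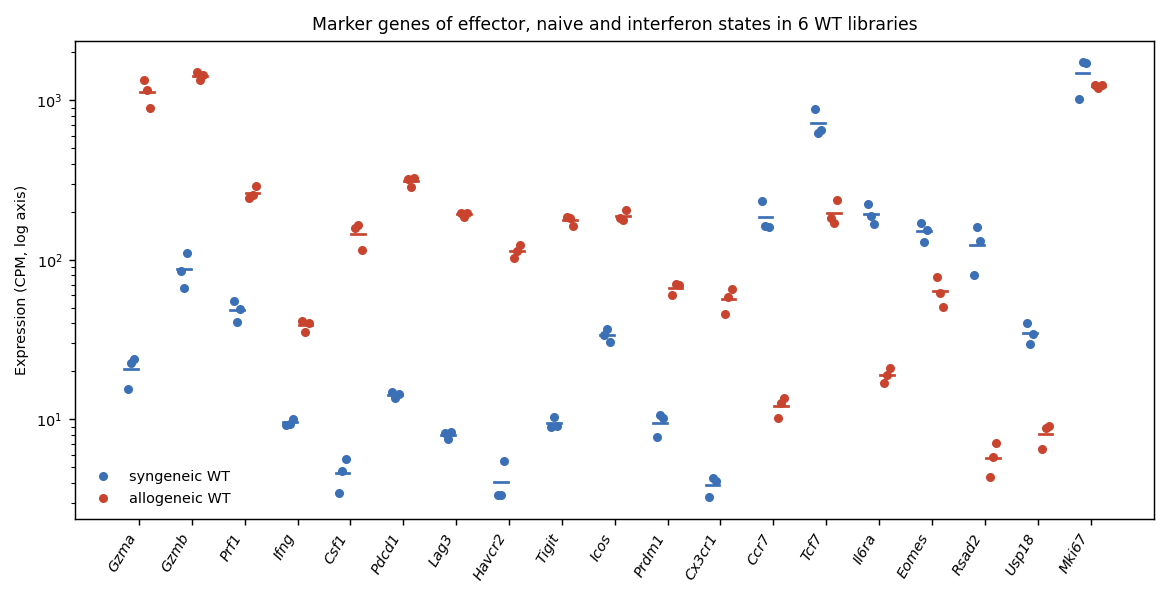
Expression of 19 genes in the 6 WT libraries (CPM, log axis); each point is a library, and each bar is the mean of 3 libraries. For every gene shown except Mki67 the syngeneic and allogeneic points are separated.

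Most genes of the inhibitory receptor list rose. The list also holds the ligand genes Cd200, Cd274 and Pdcd1lg2 and the ectoenzyme genes Entpd1 and Nt5e. Of its 16 tested members 10 rose and 1 fell (median 2.26), and all of these calls held whichever WT library was left out. Lag3, a receptor for MHC class II, stood at 8.25, 7.50 and 8.36 CPM in syngeneic libraries and at 196, 186 and 198 CPM in allogeneic ones (4.59 ± 0.13, adjusted p = 6.98e-10). Pdcd1, which encodes PD-1, stood at 14.8, 13.6 and 14.5 CPM against 321, 287 and 328 CPM (4.45 ± 0.25, adjusted p = 1.03e-07). Havcr2, which encodes TIM-3, stood at 3.35, 3.37 and 5.52 CPM against 103, 113 and 124 CPM (4.80 ± 0.28, adjusted p = 1.74e-07). The groups were far apart for each of these receptors, and Havcr2 had the widest spread of them among the syngeneic libraries, with replicate 3 above the others. Tigit, another such receptor, rose from 9.46 to 177 CPM, and Ctla4 from 13.2 to 66.7 CPM. Entpd1 and Nt5e encode the ectoenzymes that turn extracellular ATP into adenosine, CD39 acting before CD73. Entpd1 rose from 10.7 to 76.6 CPM, and Nt5e fell from 54.4 to 33.2 CPM (−0.71 ± 0.14, adjusted p = 0.00150).

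Of 18 tested costimulatory and activation receptors 13 rose and 0 fell (median 1.02; 14 had an unadjusted p under 0.05). Icos, a relative of CD28 expressed on activated T cells, stood at 33.9, 36.7 and 30.6 CPM against 184, 177 and 204 CPM (2.48 ± 0.11, adjusted p = 1.47e-08), with no overlap. Tnfrsf4, which encodes OX40, rose from 14.9 to 65.7 CPM, and Tnfrsf9, which encodes 4-1BB, from 21.5 to 87.2 CPM. Cd28 itself rose less, from 119.8 to 206 CPM. Cd80, a ligand of CD28 that is best known on antigen-presenting cells, rose from 1.31 to 13.7 CPM. Cd69, an early activation marker, stood at 67.3 and 48.5 CPM on average and was not called (−0.47 ± 0.27, adjusted p = 0.197; 0.0132 in the 6 WT libraries alone).

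Cytokine receptors moved in both directions, with 10 of 20 higher and 5 lower (median 0.41). Il2ra, the high affinity chain of the interleukin 2 receptor, rose from 37.4 to 171 CPM, and Il2rb, its signalling chain, from 697 to 1348 CPM. Il2rg, the chain shared with other cytokine receptors, was at 505 and 617 CPM and was not called (adjusted p = 0.272). The receptors of interleukins 12 and 18, which drive interferon gamma production, were higher: Il12rb2 rose from 12.7 to 88.9 CPM and Il18r1 from 105 to 464 CPM. Il1rl1, the receptor of interleukin 33, rose from 11.5 to 108 CPM. The interleukin 6 receptor moved the other way. Il6ra stood at 224, 189 and 168 CPM in syngeneic libraries and at 17.0, 19.0 and 21.1 CPM in allogeneic ones (−3.35 ± 0.20, adjusted p = 1.48e-07), and its signalling partner Il6st fell from 241 to 66.8 CPM. No allogeneic library reached the level of a syngeneic one for Il6ra. The chains of the interferon gamma receptor diverged: Ifngr1 rose from 143 to 360.3 CPM, whereas Ifngr2 fell from 16.1 to 3.50 CPM. Il4ra, a chain of the interleukin 4 receptor, fell from 282 to 124 CPM. In the list of SOCS and STAT mediators, which act below these receptors, 9 of 15 rose and 1 fell (median 0.44), among them Stat4, which signals from the interleukin 12 receptor (151 to 255 CPM), and Cish, a feedback inhibitor (46.6 to 90.0 CPM). The member that fell was Socs3, an inhibitor of interleukin 6 signalling (138 to 84.0 CPM, adjusted p = 0.0234), and its call was lost without syngeneic WT replicate 1 (0.0959), syngeneic WT replicate 3 (0.0538) or allogeneic WT replicate 1 (0.101). Socs1, a feedback inhibitor of interferon signalling, was at 40.9 and 40.6 CPM (adjusted p = 0.975).

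Transcription factors of effector cells were mostly higher, with 15 of 22 tested members called up and 1 down (median 1.24). Prdm1, which encodes Blimp-1 and is a repressor of the naive programme, stood at 7.75, 10.6 and 10.2 CPM against 60.5, 70.4 and 69.9 CPM (2.82 ± 0.18, adjusted p = 3.29e-07). Tbx21 and Eomes encode related T-box factors of cytotoxic cells, and they moved in opposite directions. Tbx21 stood at 95.4, 67.1 and 103 CPM against 232, 253 and 287 CPM (1.54 ± 0.17, adjusted p = 1.73e-05), and Eomes at 170.4, 130.3 and 154 CPM against 77.6, 62.2 and 50.6 CPM (−1.26 ± 0.16, adjusted p = 6.72e-05). The groups did not overlap for either factor. Id2, an inhibitor of E proteins, rose from 64.2 to 382 CPM, Bhlhe40 from 57.1 to 366 CPM and Maf from 20.2 to 157 CPM. Gata3, the factor of type 2 helper cells, rose from 74.1 to 254 CPM, and Tox, a factor of exhausted cells, from 44.0 to 105 CPM. In the regulatory T cell list 7 of 14 members rose and 2 fell (median 0.68). Among those that rose, Ctla4, Il2ra and Tnfrsf4 are also expressed by activated conventional T cells, and Nrp1, a marker of thymus-derived regulatory cells, rose from 25.8 to 192 CPM. Foxp3, the factor that defines regulatory T cells, stood at 21.3, 28.0 and 23.4 CPM against 21.3, 29.0 and 21.3 CPM and was not called (−0.02 ± 0.22, adjusted p = 0.951).

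Most genes of naive and memory T cells fell. Of 23 tested members 15 fell and 3 rose, with a median of −0.94. Ccr7, the receptor that leads T cells into lymph nodes, stood at 235, 164 and 160.4 CPM in syngeneic libraries and at 10.2, 12.7 and 13.7 CPM in allogeneic ones (−3.94 ± 0.25, adjusted p = 3.14e-07). Tcf7, which encodes TCF-1, stood at 878, 622 and 653 CPM against 182, 171 and 236 CPM (−1.87 ± 0.22, adjusted p = 3.79e-05). Every allogeneic library was below every syngeneic library for these genes. Other factors of quiescent T cells fell as well: Bach2 from 92.1 to 10.6 CPM, Lef1 from 323 to 151 CPM and Foxo1 from 226 to 109 CPM. Dapl1 and Igfbp4, whose transcripts mark naive T cells, fell from 71.7 to 2.09 CPM and from 343 to 14.6 CPM. Not every member of the list moved. Il7r, the interleukin 7 receptor that keeps naive and memory cells alive, was at 164 and 216 CPM (adjusted p = 0.139), and Klf2, which controls exit from the thymus, at 325 and 345 CPM (adjusted p = 0.783). Ccr9, a gut homing receptor placed in this list, rose from 14.3 to 58.8 CPM (2.04 ± 0.34, adjusted p = 7.38e-04). The other members that rose were Slamf6, with log2 fold change 0.43 ± 0.12 (adjusted p = 0.0141; 0.0738 without syngeneic WT replicate 3 and 0.0679 without allogeneic WT replicate 3), and Ets1, with 0.54 ± 0.15 (adjusted p = 0.0141; 0.0565 and 0.0690 without syngeneic WT replicate 2 and 3). Without syngeneic WT replicate 3, 1 member of the list was called higher.

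Receptors that guide cells into tissues were mostly higher, with 14 of 23 tested chemokine receptors and integrins called up and 3 down (median 0.79). Cx3cr1, the fractalkine receptor of effector cells, stood at 3.27, 4.30 and 4.09 CPM against 46.0, 58.5 and 65.5 CPM (3.87 ± 0.19, adjusted p = 3.94e-08). Cxcr6, a receptor of T cells in liver and other tissues, stood at 27.0, 26.2 and 26.8 CPM against 245, 194 and 202 CPM (3.00 ± 0.29, adjusted p = 9.36e-06). Itga1, the collagen-binding chain of VLA-1, stood at 1.29, 4.53 and 4.02 CPM against 69.8, 99.8 and 105 CPM (4.81 ± 0.52, adjusted p = 7.04e-05). The groups were separate for all of these. Itga4, a chain of the gut homing integrin alpha4 beta7, rose from 279.8 to 903 CPM, and its partner Itgb1, with which it forms VLA-4, from 248 to 837 CPM. Itgax, which encodes CD11c, rose from 11.9 to 177 CPM. Cxcr3, the receptor of interferon-induced chemokines, rose from 100.2 to 199 CPM. Itgae, which encodes CD103 and holds T cells at epithelium, fell from 29.2 to 12.2 CPM.

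Of 20 tested genes of T cell receptor signalling 9 rose and 2 fell (median 0.46). The number that rose was 5 without syngeneic WT replicate 2, and the number that fell was 0 without syngeneic WT replicate 1, allogeneic WT replicate 1 or allogeneic WT replicate 2. Rasgrp1, an activator of Ras, fell (−0.36 ± 0.12, adjusted p = 0.0395), and without these libraries in turn its adjusted p was 0.174, 0.112 and 0.0559. It was 0.0582 with syngeneic WT replicate 2 dropped and 0.116 with allogeneic WT replicate 3 dropped. Zap70, the kinase recruited to the receptor, rose from 204 to 400.1 CPM, and the negative regulators Ubash3b and Cblb from 42.5 to 145 CPM and from 149.7 to 269 CPM. Of 18 immediate early genes 4 rose and 3 fell (median −0.24), and DESeq2 called 6 lower. Egr2 and Egr3, which are induced by T cell receptor signals and limit the response, rose from 10.4 to 24.0 CPM and from 7.35 to 17.1 CPM. Nr4a2, an orphan nuclear receptor, rose from 7.76 to 18.7 CPM. Myc stood at 208, 167 and 196 CPM against 85.3, 75.0 and 86.8 CPM (−1.21 ± 0.15, adjusted p = 4.89e-05), lower in all allogeneic libraries. Fos, part of the AP-1 factor and sensitive to cell handling, stood at 187, 203 and 139 CPM against 33.7, 30.7 and 23.7 CPM and was not called over the 12 libraries (−2.59 ± 0.97, adjusted p = 0.0685; 3.94e-06 in the 6 WT libraries alone).

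Of 8 tested genes of the CD4 and CD8 lineages 4 rose and 1 fell. Cd4 rose from 188 to 396 CPM (1.08 ± 0.23, adjusted p = 0.00362), with 225, 181 and 156 CPM against 458, 371 and 359 CPM. Cd8a stood at 651, 466 and 517 CPM against 319, 371 and 368 CPM (−0.63 ± 0.19, adjusted p = 0.0205). Its call was lost without syngeneic WT replicate 1 (0.0884) or allogeneic WT replicate 1 (0.0827), and Cd8b1, the partner chain of CD8, was not called (−0.16 ± 0.22, adjusted p = 0.598) and overlapped between the groups. Zbtb7b, which encodes ThPOK, the factor of the CD4 lineage, rose from 73.3 to 164 CPM. In these bulk libraries a different share of cells of a type and a different amount of RNA per cell cannot be told apart, for CD4 and CD8 cells as for every other gene group described here.

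**Figure D3:**
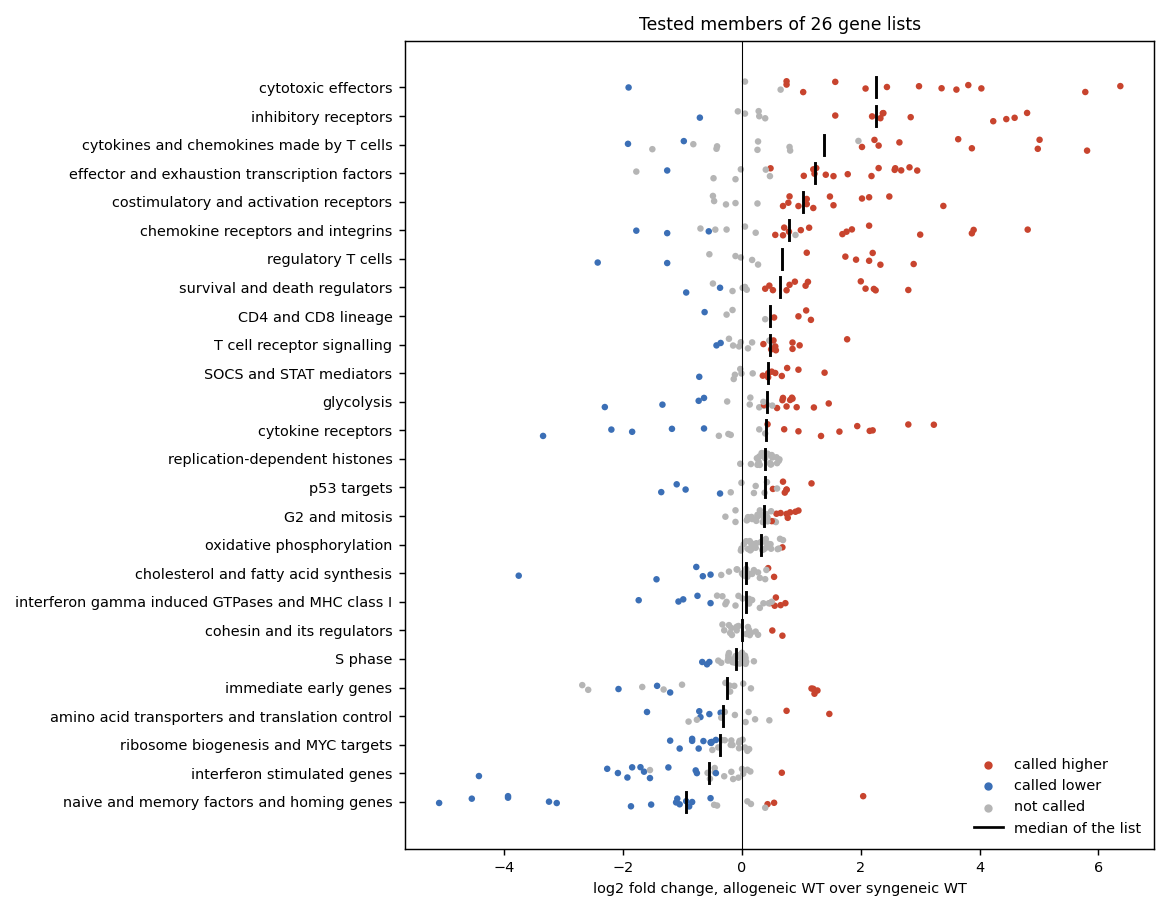
Log2 fold change of allogeneic over syngeneic WT (horizontal axis) for each tested member of 26 gene lists, ordered by the median of the list (black bar); each point is a gene, and its colour gives its call. The lists of cytotoxic effectors and inhibitory receptors have medians of 2.26, and the list of naive and memory genes has a median of −0.94.

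Few S phase genes and no histone gene passed the test, while 8 of 30 genes of G2 and mitosis rose. Over all tested genes 16.4% were called higher and 15.9% lower. Mki67, the proliferation marker Ki-67, stood at 1024, 1727 and 1725 CPM in syngeneic libraries and at 1244, 1198 and 1239.8 CPM in allogeneic ones, so that the groups overlapped (−0.28 ± 0.25, adjusted p = 0.420). Of 30 tested S phase genes 0 rose and 3 fell (median −0.10), and 4 had an unadjusted p under 0.05. The 3 were E2f1 (39.4 to 26.9 CPM, adjusted p = 0.00564), Cdc6 and Ccne2, and 1 of these calls remained without syngeneic WT replicate 2, syngeneic WT replicate 3 or allogeneic WT replicate 2. Cdc6 was at an adjusted p of 0.0176 (0.0715, 0.0756 and 0.0793 without these libraries in turn) and Ccne2 at 0.0234 (0.109, 0.0781 and 0.0893). Of 30 genes of G2 and mitosis 8 rose and 0 fell (median 0.37; 13 had an unadjusted p under 0.05). Ccnb2, a mitotic cyclin, stood at 56.2, 67.1 and 79.4 CPM against 150.5, 114 and 114 CPM (0.90 ± 0.19, adjusted p = 0.00336), and Cdc25b, the phosphatase that starts mitosis, rose from 166 to 289.6 CPM. The number of risen genes in this list was 4 without allogeneic WT replicate 1 and 5 without syngeneic WT replicate 1 or replicate 2. None of 24 replication-dependent histone genes was called by edgeR (4 had an unadjusted p under 0.05; median 0.39).

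Of 24 ribosome biogenesis genes and MYC targets, Myc included, 10 fell and 0 rose (median −0.37; 12 had an unadjusted p under 0.05); 6 fell without syngeneic WT replicate 1 or allogeneic WT replicate 2. Polr1b, a subunit of RNA polymerase I, fell from 60.3 to 36.5 CPM (−0.73 ± 0.11, adjusted p = 3.13e-04), and Odc1, which makes polyamines, from 121 to 58.5 CPM. Of 16 amino acid transporters and translation regulators 5 fell and 2 rose (median −0.32), with 3 falls left without allogeneic WT replicate 2. Slc7a5, the leucine transporter, fell from 139 to 85.2 CPM, and Ddit4, an inhibitor of mTORC1, rose from 74.8 to 208 CPM (1.47 ± 0.17, adjusted p = 3.69e-05).

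Of 23 glycolysis genes 11 rose, 4 fell and 8 were not called (median 0.42), and 8 rose without syngeneic WT replicate 2. Slc2a3, the glucose transporter GLUT3, stood at 63.3, 56.6 and 62.1 CPM against 172, 166 and 161 CPM (1.46 ± 0.10, adjusted p = 4.40e-07), and Pfkp, a phosphofructokinase, rose from 201 to 352 CPM. Pdk1, a mitochondrial kinase that inhibits pyruvate dehydrogenase, stood at 182, 142 and 132 CPM against 36.1, 30.4 and 25.3 CPM (−2.31 ± 0.19, adjusted p = 1.83e-06). The groups did not overlap for either gene, and the transporter and the kinase moved in opposite directions. Of 28 oxidative phosphorylation genes 1 was called, Cox5a, which rose from 35.1 to 56.2 CPM (adjusted p = 0.0316; 0.117, 0.0755 and 0.124 without syngeneic WT replicate 2, syngeneic WT replicate 3 and allogeneic WT replicate 1). The median of that list was 0.32, and DESeq2 called 6 of its genes higher. In lipid synthesis 5 of 25 genes fell and 2 rose (median 0.06), with 3 falls left without allogeneic WT replicate 2 or syngeneic WT replicate 1, no rise left without allogeneic WT replicate 1 or syngeneic WT replicate 3, and 1 rise left without any of the other 4 libraries. Scd1, the stearoyl-CoA desaturase, fell from 5.40 to 0.400 CPM.

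Of 26 tested interferon stimulated genes, 12 were called lower in allogeneic cells and 13 were not called, while Ifng was higher. Many such genes carry the interferon-stimulated response element (ISRE) in their promoters, and the promoter letters of 3 interferon-induced genes are shown before the values. The windows are RefSeq promoters of build GRCm38.p6, from 250 bases before to 50 bases after the start site of the gene, on the strand of the gene, and capitals mark the element as GAAA, 2 bases of any kind and GAAA, or its reverse complement. Rsad2 and Isg15 were called lower, and Irgm2, a GTPase induced by interferon gamma, was not called. Their windows lie at chr12:26456403-26456702 (minus strand), chr4:156200769-156201068 (minus strand) and chr11:58214727-58215026 (plus strand).
Rsad2: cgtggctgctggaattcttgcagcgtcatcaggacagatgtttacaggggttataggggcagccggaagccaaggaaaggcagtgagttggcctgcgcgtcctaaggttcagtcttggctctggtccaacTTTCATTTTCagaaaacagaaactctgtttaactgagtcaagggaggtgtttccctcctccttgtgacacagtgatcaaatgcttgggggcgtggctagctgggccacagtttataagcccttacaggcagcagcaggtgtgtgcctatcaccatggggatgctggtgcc
Isg15: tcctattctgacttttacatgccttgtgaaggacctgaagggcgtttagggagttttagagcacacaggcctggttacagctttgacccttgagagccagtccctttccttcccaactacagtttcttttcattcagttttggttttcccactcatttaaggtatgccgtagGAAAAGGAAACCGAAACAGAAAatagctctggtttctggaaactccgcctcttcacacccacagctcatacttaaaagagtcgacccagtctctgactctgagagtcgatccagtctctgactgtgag
Irgm2: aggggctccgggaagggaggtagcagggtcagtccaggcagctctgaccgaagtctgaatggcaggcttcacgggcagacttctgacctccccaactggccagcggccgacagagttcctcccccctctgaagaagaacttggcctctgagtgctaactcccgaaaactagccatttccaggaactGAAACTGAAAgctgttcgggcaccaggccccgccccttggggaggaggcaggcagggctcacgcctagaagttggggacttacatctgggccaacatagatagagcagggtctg
Isg15 holds 3 overlapping matches, the first base of them 78 bases before the start site. The single match of Rsad2 lies at −120 and that of Irgm2 at −64. Of 27025 promoters of the same length, 3.49% held this motif on either strand. Of the 26 tested interferon stimulated genes 19 matched a promoter by symbol, and 11 of these (57.9%) held the motif. Of the 24 tested interferon gamma induced GTPases and genes of MHC class I, 18 matched and 11 (61.1%) held it. The shares were close in both lists, whose median log2 fold changes were −0.56 and 0.06. Of the 11 stimulated genes with the motif 5 fell and 1 rose, and of the 8 without it in this window 4 fell.

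The median of the interferon stimulated list was −0.56, 1 member rose, and 9 of the 12 falls held whichever WT library was left out. Rsad2, which encodes the antiviral protein viperin, stood at 80.2, 159.8 and 132 CPM in syngeneic libraries and at 4.39, 5.79 and 7.10 CPM in allogeneic ones (−4.43 ± 0.33, adjusted p = 1.50e-06). Usp18, a feedback inhibitor of the type I interferon receptor, stood at 40.5, 29.6 and 34.4 CPM against 6.52, 8.87 and 9.06 CPM (−2.09 ± 0.31, adjusted p = 2.64e-04). Isg15, a ubiquitin-like protein, stood at 27.8, 29.5 and 32.9 CPM against 9.28, 8.08 and 10.2 CPM (−1.71 ± 0.43, adjusted p = 0.0103). Each was lower in all 3 allogeneic libraries. Oasl1 and Oasl2, of the oligoadenylate synthetase family, fell from 12.2 to 3.20 CPM and from 45.7 to 12.7 CPM, and Ifit3 from 17.2 to 5.85 CPM. Ifih1, the RNA sensor MDA5, was the 1 member that rose (0.67 ± 0.20, adjusted p = 0.0238), and its call was lost without any of 5 WT libraries (adjusted p of 0.0693, 0.0571 and 0.0624 without syngeneic WT replicate 1, 2 and 3, and 0.0720 and 0.0515 without allogeneic WT replicate 1 and 3). Stat2, a factor that acts at the element, was at 54.5 and 55.2 CPM and was not called (adjusted p = 0.936). Rsad2 moved with the red cell markers across groups, and was at 9.69 CPM on average in syngeneic KO, where those markers were low too, and the part of red cell precursors in its level was not tested.

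The genes induced mainly by interferon gamma had no common direction, with 5 of 24 higher and 5 lower (median 0.06). These counts are near the shares over all tested genes, 16.4% higher and 15.9% lower. Tap1 and Tap2, which load peptides for MHC class I, rose from 295 to 463 CPM and from 134 to 199.6 CPM. The GTPases Tgtp1 and Gbp9 fell from 18.4 to 5.54 CPM and from 89.3 to 53.1 CPM. Gbp2 was at 90.1 and 97.6 CPM (adjusted p = 0.801), and Irgm2 at 55.8 and 56.0 CPM (adjusted p = 0.982). Without allogeneic WT replicate 1 or syngeneic WT replicate 2, 2 members rose, and without syngeneic WT replicate 3, 3 members rose.

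Regulators of survival and death were mostly higher, with 13 of 20 called up and 2 down (median 0.64). Pmaip1, which encodes the death-promoting protein NOXA, stood at 7.22, 9.16 and 7.85 CPM against 37.1, 37.7 and 37.8 CPM (2.22 ± 0.15, adjusted p = 3.70e-07), and Bcl2l11, which encodes BIM, rose from 81.7 to 172 CPM. Bcl2, which opposes BIM, stood at 332, 300.1 and 291 CPM against 134, 180.0 and 167 CPM (−0.94 ± 0.13, adjusted p = 1.10e-04). The groups were separate for these genes, with Pmaip1 and Bcl2l11 higher and Bcl2 lower in allogeneic cells. The other fall in the list, of Bcl2l1 (−0.37 ± 0.13, adjusted p = 0.0449), was lost in 5 of the 6 fits that left out a WT library, with adjusted p up to 0.164, and held without syngeneic WT replicate 1. Of 17 tested p53 targets 6 rose and 4 fell (median 0.38); 3 rose without allogeneic WT replicate 1, and 2 fell without any 1 of the allogeneic WT libraries or syngeneic WT replicate 1. Cdkn1a, the cell cycle inhibitor p21, rose from 5.12 to 11.6 CPM, and Sesn1, a stress-induced regulator of mTORC1, fell from 43.1 to 22.3 CPM. Of 18 tested cohesin genes and regulators, which include Wapl, 2 rose and 0 fell (median 0.00; 3 had an unadjusted p under 0.05). They were Pttg1, which encodes securin (13.1 to 21.1 CPM, adjusted p = 0.00545), and Rad21, a core subunit (265 to 378 CPM, adjusted p = 0.0202; 0.0642 without syngeneic WT replicate 1 and 0.0845 without allogeneic WT replicate 1).

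Genes of red cell precursors showed some of the greatest differences of the comparison. Of 18 tested erythroid markers 17 fell and 0 rose, with a median of −5.26. Hbb-bs, a beta globin, stood at 886, 1786 and 1512 CPM in syngeneic libraries and at 5.78, 3.05 and 2.99 CPM in allogeneic ones (−8.47 ± 0.73, adjusted p = 1.64e-05). Slc4a1, the anion exchanger of the red cell membrane, stood at 564, 1599.9 and 1389 CPM against 11.4, 4.16 and 4.66 CPM (−7.46 ± 0.84, adjusted p = 1.23e-04). Alas2, which starts haem synthesis in these cells, stood at 128, 292 and 247 CPM against 1.25, 0.804 and 1.22 CPM (−7.69 ± 0.57, adjusted p = 3.93e-06). Syngeneic WT replicate 1 was the lowest of its group for each and still far above every allogeneic library. Of the 12 largest falls by the same rule, Hbb-bs, Hbb-bt, Hba-a1, Hba-a2, Alas2 and Slc4a1 belong to the list. Dmtn, of the red cell membrane skeleton, also among them, fell from 93.7 to 0.556 CPM and is outside the list, as are Tmcc2, Ypel4, Slfn14 and Apol11b. The alpha globin copies Hba-a1 and Hba-a2 are nearly identical, so the split of reads between them is uncertain. The cells had been sorted as CD3+, and the part of red cell precursors in these libraries was not tested. The marrow graft was of the same size in both groups. Radiation dose, T cell dose and recipient strain differed together, and their parts cannot be told apart.

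Many red cell genes are bound by GATA1, and Gata1 itself fell from 28.8 to 4.45 CPM. The promoter of Alas2 is shown as an example, at chrX:150547167-150547466 (plus strand, GRCm38.p6), with matches of AGATAA or its reverse complement in capitals.
Alas2: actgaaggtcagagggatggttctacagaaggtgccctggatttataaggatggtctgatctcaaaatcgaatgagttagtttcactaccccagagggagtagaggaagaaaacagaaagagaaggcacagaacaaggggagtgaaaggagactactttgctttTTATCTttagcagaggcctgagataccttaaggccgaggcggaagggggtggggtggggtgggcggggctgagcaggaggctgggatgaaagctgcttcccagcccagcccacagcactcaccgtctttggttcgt
The match begins 86 bases before the start site. Of 13 erythroid markers with a promoter, 4 held this motif (30.8%), against 11.4% of all promoters; all 13 of these genes fell. The share was the same in the inhibitory receptor list, where 4 of 13 promoters held it (30.8%) and 3 of those 4 genes rose. The promoter of Ccnb2, at chr9:70421505-70421804 (minus strand), shows another motif of the kind, TTTGAA, known as the cell cycle homology region when it lies near the start of mitotic genes.
Ccnb2: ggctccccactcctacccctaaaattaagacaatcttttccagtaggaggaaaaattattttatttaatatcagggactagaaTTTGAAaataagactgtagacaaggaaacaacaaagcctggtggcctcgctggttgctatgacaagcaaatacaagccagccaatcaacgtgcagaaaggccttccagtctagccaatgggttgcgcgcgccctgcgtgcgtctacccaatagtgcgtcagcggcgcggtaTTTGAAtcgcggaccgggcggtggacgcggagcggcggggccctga
It holds 2 matches, and 17 of 24 genes of G2 and mitosis with a promoter held the motif (70.8%), against 18.1% of all promoters and 5 of 11 in the cohesin list (45.5%). Of those 17 genes 4 rose, and of the other 7 genes 2 rose. A match names letters in a window and does not show binding. In all 9 motifs were searched, which besides these were CACGTG (E-box), TTTCCCGC (E2F), AGGTGTGA (T-box), TGACGTCA (CRE), TGANTCA (AP-1) and TTCNNNGAA (STAT), on both strands. The E-box was held by 4 of 18 ribosome biogenesis promoters (22.2%, against 7.24% of all) and by 3 of 14 immediate early gene promoters (21.4%).

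Markers of other cells were measured for each group. Macrophage, monocyte and dendritic cell genes had 10 of 18 tested members lower and 3 higher (median −1.92). C1qc, a complement gene of macrophages, stood at 1.06, 5.08 and 3.90 CPM against 0.156, 0.407 and 0.558 CPM (−3.15 ± 0.78, adjusted p = 0.00903), and Vcam1, an adhesion molecule of splenic macrophages, fell from 8.16 to 0.829 CPM. The members that rose were Itgax, Cd68 and Axl, and Itgax alone had 177 CPM of the summed 261 to 325 CPM in allogeneic WT. The number of falls was 6 without allogeneic WT replicate 1 or 2 and 4 without syngeneic WT replicate 2. Of 15 neutrophil genes 0 were called by edgeR (0 had an unadjusted p under 0.05; median −0.18), and their summed level was 489 to 1476 CPM in syngeneic WT and 683 to 1180.3 CPM in allogeneic WT. Of 21 B and plasma cell genes 6 fell and 1 rose (median −0.44), with 3 falls left without syngeneic WT replicate 3, allogeneic WT replicate 1 or allogeneic WT replicate 3. Cd22, a B cell receptor partner, fell from 57.2 to 20.8 CPM. The summed B cell list stood at 680.0 to 1336 CPM and 1405 to 2069 CPM, most of it Ighm and Igkc, of which neither was called (adjusted p = 0.425 and 0.434; Ighm had 0.0299 in the 6 WT libraries alone).

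Genes shared with natural killer cells split, with 5 of 18 higher and 5 lower (median 0.03). Klrk1, which encodes the activating receptor NKG2D, stood at 11.6, 19.7 and 19.3 CPM against 95.2, 113 and 88.9 CPM (2.55 ± 0.27, adjusted p = 2.29e-05), and Klrc1, which encodes NKG2A, rose from 14.3 to 74.5 CPM. Klra7, of the Ly49 family of near-identical receptor genes, fell from 4.31 to 0.444 CPM. The summed natural killer list was 305 to 335 CPM in syngeneic WT and 1285 to 1736 CPM in allogeneic WT, where Gzma, which T cells express, had a mean of 1136 CPM. Ncr1, the defining receptor of natural killer cells, was at 0.594 and 1.62 CPM (adjusted p = 0.0349, and above 0.05 without any single WT library, from 0.0564 to 0.108). Trdc, the constant region of the delta chain of gamma delta T cells, stood at 14.2, 13.2 and 11.2 CPM against 3.33, 2.62 and 1.99 CPM (−2.28 ± 0.32, adjusted p = 1.63e-04). Of the gamma delta list 3 of 8 tested members fell and 2 rose. The summed list stood at 49.4 to 54.4 CPM in syngeneic WT and 149.5 to 187 CPM in allogeneic WT. Its member Maf alone had a mean of 157 CPM in allogeneic WT. In the platelet list 2 of 7 fell and 1 rose. Its sum was 91.3 to 99.0 CPM in syngeneic WT and 161 to 231 CPM in allogeneic WT. The risen gene, Itgb3 (85.6 to 201 CPM), encodes an integrin chain that activated T cells can also carry.

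**Figure D4:**
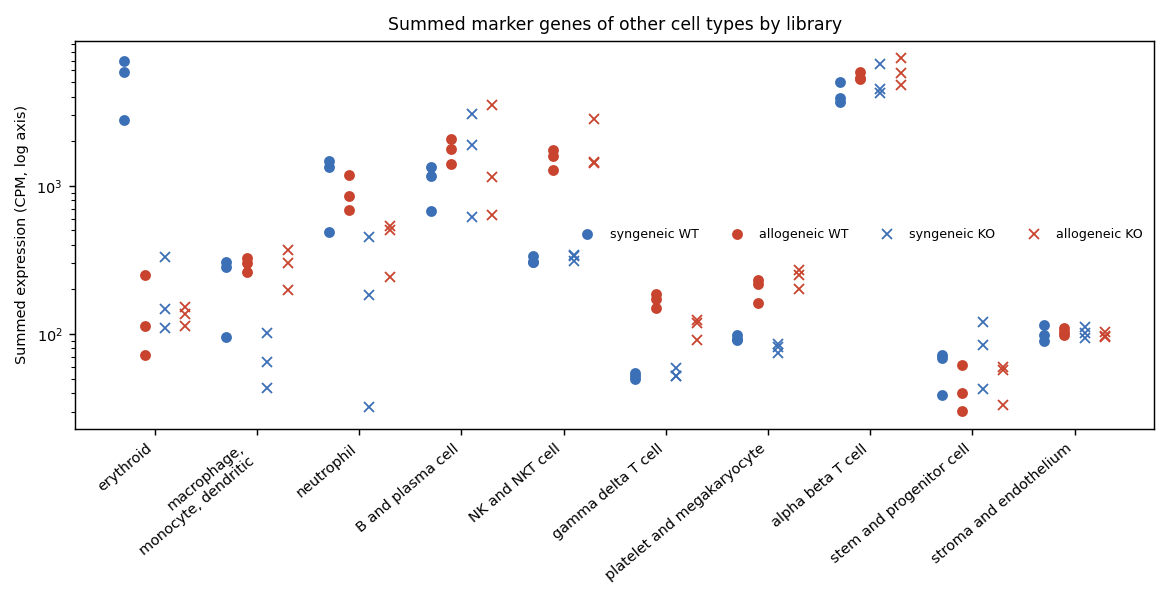
Summed expression of 10 cell type marker lists (CPM, log axis) by library; circles are WT and crosses are KO, blue is syngeneic and red is allogeneic. The erythroid sum is 2778 to 6915 CPM in syngeneic WT and at most 330.5 CPM in every other library.

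Several of the largest rises lay outside the usual effector genes. Dsp, the desmosome protein desmoplakin, stood at 0.576, 0.719 and 0.579 CPM in syngeneic libraries and at 16.8, 25.5 and 25.7 CPM in allogeneic ones (5.18 ± 0.22, adjusted p = 1.21e-08). Gldc, the glycine decarboxylase of mitochondria, stood at 0.482, 0.445 and 0.409 CPM against 23.0, 24.9 and 28.5 CPM (5.83 ± 0.28, adjusted p = 3.10e-08). Epha3, an ephrin receptor, stood at 0.156, 0.137 and 0.119 CPM against 12.0, 16.0 and 10.1 CPM (6.51 ± 1.19, adjusted p = 0.00257). The syngeneic libraries were all under 1 CPM for these genes, and the allogeneic libraries were all above 10 CPM. Ajuba, a LIM domain adaptor, rose from 0.760 to 27.0 CPM, Vax2, a homeobox factor of the eye, from 0.328 to 12.5 CPM, Serpinb9b from 0.251 to 15.2 CPM and the lectin-like receptor Klrb1b from 0.235 to 22.2 CPM. Dpysl3, of a family of neuronal proteins, rose from 0.0947 to 11.2 CPM. Erc2, a protein of the synaptic active zone, had a total of 1 count in the 3 syngeneic libraries and 5.69, 4.83 and 5.42 CPM in the allogeneic ones, and no fold is given for it. Il13, Gzma and Csf1, described above, complete the 12 largest rises among called genes with at least 5 CPM in the higher group and no overlap. Il4, under that level, had a larger log2 fold change (5.01) than Csf1 (4.98).

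Syngeneic and allogeneic transplants were also made with donor T cells lacking Wapl, and those 6 libraries share none with the WT comparison. They differ from it in more than the deletion. In the KO libraries 4 Y-linked genes summed to between 31.4 and 138 CPM, and in the WT libraries to between 0.733 and 1.75 CPM. The KO sums conflict with the description of donors and recipients as female. The labels of syngeneic KO name the allogeneic recipient strain in another field. The radiation dose and T cell number of syngeneic KO were not established here. Wapl stood at 127, 139 and 137 CPM in syngeneic KO and at 145, 124 and 151 CPM in allogeneic KO, and a count over the whole gene does not show whether its deleted part is missing. Of the 5955 genes called in WT, 5761 (96.7%) had the same sign in KO, 3571 were called in KO in the same direction and 12 in the opposite one. In KO 13.2% of tested genes were called higher and 11.2% lower in allogeneic cells. Of the 16 cytotoxic genes 12 rose and 1 fell in KO (median 2.32), and of the inhibitory receptor list 11 rose and 1 fell (1.65). Of the naive and memory genes 3 rose and 16 fell in KO (−1.03), and of the interferon stimulated genes 1 rose and 12 fell (−0.72). The erythroid list was different in count, with 2 of 18 lower in KO (median −0.63), and the syngeneic KO libraries held 109.6 to 330.5 CPM of these markers summed.

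The difference between the WT and the KO effect was tested for every gene as an interaction. It was called for 88 genes (0.477%; 1144 had an unadjusted p under 0.05), 86 of them among the genes called in WT, and the WT effect was the more negative in 79 and the more positive in 9. It was called for 293 genes by DESeq2. It was called for 242 genes without syngeneic WT replicate 1, for 96 without syngeneic KO replicate 3, for 60 without allogeneic WT replicate 1, and for 28 to 41 without any other single library. Among the genes named by rule, red cell genes were the most frequent. Alas2 fell by 7.69 on the log2 scale in WT and was at −1.43 in KO, where it was not called (interaction adjusted p = 0.00583; 0.0577 without allogeneic KO replicate 3). Apol11b had −7.35 in WT and 0.21 in KO (0.00291), and Rsad2 −4.43 and −1.03 (0.00583). In the other direction Lag3 rose by 4.59 in WT and 3.18 in KO (0.00291), its mean being 8.04 CPM in syngeneic WT and 24.3 CPM in syngeneic KO against 193 and 220.3 CPM in the allogeneic groups. The interactions of Apol11b, Rsad2 and Lag3 were called in all 12 fits that left out a library. Maf rose by 2.95 in WT and 1.69 in KO (0.0316), called in 6 of those 12 fits. Egr2 rose by 1.20 in WT and had a difference of 0.00 in KO (0.0347), with means of 10.4 and 24.0 CPM in WT and 15.7 CPM in both KO groups. The interaction of Egr2 was called in 3 of the 12 fits.

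**Figure D5:**
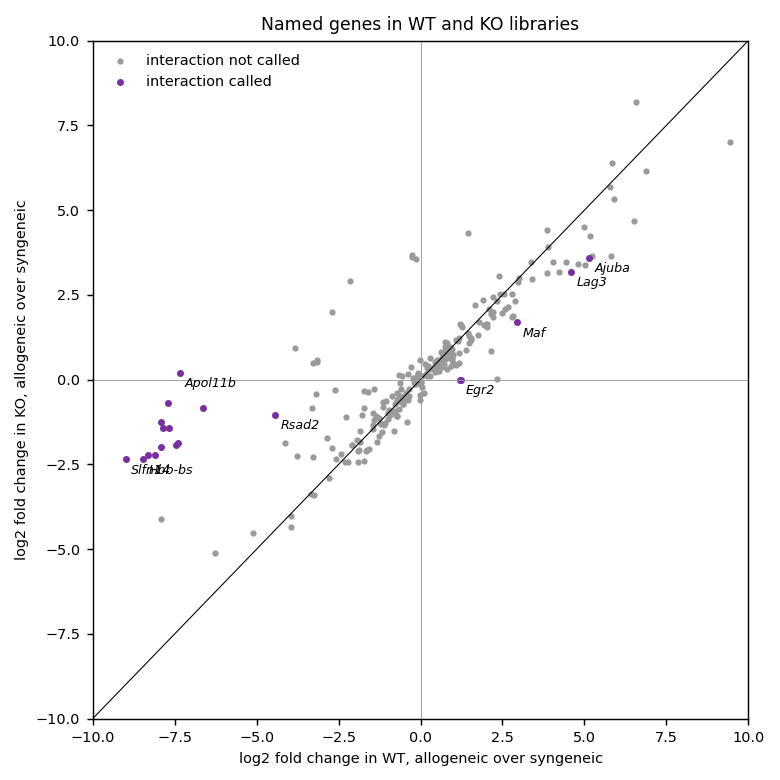
Log2 fold change of allogeneic over syngeneic in KO (vertical axis) against that in WT (horizontal axis) for the genes named by rule; each point is a gene, the line marks equal values, and purple points have a called interaction. Most genes lie near the line, and Rsad2 and the red cell genes lie to the left of it.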

How the data were processed

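RNA sequencing libraries of sorted spleen T cells were compared. The table deposited by the authors gives estimated counts per gene (94.5 to 95.0% of values whole), rounded to whole numbers here. The submitters' processing notes list Cuffdiff 2.2.1, Cufflinks, the aligners Bowtie2 2.2.1 and TopHat2 2.0.13, and build GRCm38, and which of them made the counts, the annotation and the strand setting are not given in the sources used here. Reads of overlapping and antisense genes can therefore not be told apart. Each library is labelled as a pool of mice and an independent biological replicate. The 12 columns whose names match a sample title of the WT or KO transplant groups were used. Another 6 columns, which carry the allogeneic identifiers with a prefix and match no sample title, were not used, and what they hold was not tested. The naive samples were not analysed here.

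Genes were kept by the edgeR filter at a minimum count of 10 (18447 of 46073), scaled by TMM and tested with edgeR 4.0.16 (R 4.3.3), using a robust quasi-likelihood fit with a mean for each of 4 groups and 8 residual degrees of freedom. CPM (counts per 1000000) use the TMM-scaled totals and are not per length, so they are compared between libraries and not between genes. The biological coefficient of variation was 0.249. In simulated counts for 18168 genes, 111 were changed by 1 and 86 by 2 on the log2 scale, and all others were equal between groups. Of these changes 37.8% and 70.9% were recovered, and 5 unchanged genes were called. In the data 32.3% of genes were called, far more than were changed in the simulation. The recovered shares are therefore not the sensitivity of the WT comparison. Same-numbered libraries of the WT groups did not deviate together, and the numbers were not used as pairs. Alternatives were other size factors, DESeq2 1.42.0, no filter, no ribosomal RNA or erythroid genes, a replicate block, the 6 WT libraries alone, and each library left out in turn.

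The genes named are Wapl, the 12 largest rises and 12 largest falls among named genes with at least 5 CPM in the higher group and no overlap, the first 3 members of each list, up to 4 (cell markers 3) called members per direction with the smallest p, and members with a called interaction, 251 in all, of which not all are described, and some are not reported here. Gzmk, Il10, Ccl3, Entpd1, Tnfrsf9, Cd69, Il7r, Il1rl1, Ifngr1, Tox, Gata3, Lef1, Klf2, Foxo1, Bach2, Igfbp4, Itga4, Itga1, Ifit3, Stat2, Irgm2, Gata1, Ighm and Igkc are list members outside this rule, chosen after their values were seen. The members and lists were chosen with earlier results of these data known.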

Additional observations from a re-analysis of the deposited data

Results flagged for a closer look

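The effect of allogeneic against syngeneic transplant differed between WT and KO T cells, by the interaction test, for 88 genes. Among the genes named, the WT difference minus the KO difference was negative for red cell genes and genes that moved with them: −6.13 on the log2 scale for Hbb-bs, −6.43 for Hbb-bt, −5.92 for Hba-a1, −6.11 for Hba-a2, −6.26 for Alas2, −5.54 for Slc4a1, −5.53 for Dmtn, −6.65 for Slfn14, −5.88 for Tmcc2, −6.66 for Ypel4 and −7.56 for Apol11b. For these the syngeneic WT libraries were high and the other groups low, and syngeneic WT also held the highest sum of erythroid markers. The interferon stimulated gene Rsad2 followed the same order of groups, with −3.40. Positive differences, with a larger rise in WT, were found for Ajuba (1.55), Lag3 (1.41), Maf (1.26), Egr3 (1.21) and Egr2 (1.20). Of 12 fits that each left out 1 library, the interaction was called in all 12 for Apol11b, Rsad2 and Lag3, in 11 for Alas2 and in 10 for Tmcc2. It was called in 6 of 12 for Hbb-bs, Dmtn, Ypel4 and Maf, in 4 for Hba-a2 and Hbb-bt, and in 3 for Slfn14 and Egr2, with an adjusted p of up to 0.307 for Slfn14. For Hba-a1, Slc4a1, Ajuba and Egr3 it was called in 2 of 12, those without syngeneic WT replicate 1 and without syngeneic KO replicate 3, and the adjusted p reached 0.258, 0.177, 0.147 and 0.190. The WT and KO libraries also differ in Y-linked expression and in a conflicting label of syngeneic KO. Radiation dose and T cell number of syngeneic KO were not established. The part of the deletion itself cannot be told apart from these differences.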

How the results depend on the processing

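The number of genes called between allogeneic and syngeneic WT was 5955, and 5576 to 7766 under the alternatives that kept all WT libraries, the highest in the 6 WT libraries alone. It was 4110 to 5380 when a WT library was left out, with a similar number higher and lower in each case. For KO it was 4500, and 4088 to 5412 with all KO libraries and 3062 to 5397 without one. The number of called interactions moved from 88 to 293 by DESeq2 and to between 28 and 242 when a library was left out, and the cause was not tested. With the replicate number as a block, 6098 genes were called in WT, 4630 in KO and 64 for the interaction. Same-numbered WT libraries had correlations of deviations of −0.135, −0.116 and 0.018, so no pairing was assumed. Of 251 genes named by rule, 204 were called in WT. Of these 204, 36 lost the call in at least 1 fit without a library and 11 under another alternative, and 0 changed sign. Of the genes not called, 16 were called under another alternative, 14 of them in the 6 WT libraries alone. Genes near no difference changed sign without being called. Without 1 library the log2 fold change ranged from −0.28 to 0.04 for Cd8b1, −0.02 to 0.29 for Gbp2, −0.17 to 0.16 for Socs1, −0.18 to 0.10 for Foxp3, −0.01 to 0.20 for Klf2, −0.07 to 0.16 for Stat2 and −0.12 to 0.11 for Irgm2. Without the filter it was 0.01 for Socs1 and 0.01 for Foxp3, and with the block 0.02 for Socs1. Levels that rest on few counts, such as Il2 in both groups and Erc2 in syngeneic WT, are measured with little precision at these depths.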
